A study of Mus musculus with 6 samples.

Results

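The caveolar coat genes Cav1, Cav2, Cavin1, Cavin2, Cavin3, Cavin4 and Ehd2 were described in organoids grown from mouse cochlear progenitor cells and kept in stiff or soft hydrogels. They were taken by symbol from the deposited comparison of both gels, and all 7 were found among its 15016 genes, with the NCBI Gene IDs 12389 (Cav1), 12390 (Cav2), 19285 (Cavin1), 20324 (Cavin2), 109042 (Cavin3), 68016 (Cavin4) and 259300 (Ehd2). They were chosen with their stiff and soft values already known, so their levels, differences and ratios are descriptions and carry no test. The stiff group and the soft group had 3 libraries each, all labelled wild type, from inner ear. Both groups had first been expanded in a medium with EGF, bFGF, IGF, the GSK3 inhibitor CHIR99021, valproic acid, a vitamin C derivative and 616452, an inhibitor of the TGF-beta type I receptor. Both then received a differentiation medium with CHIR99021 and the gamma-secretase inhibitor LY411575, and were divided between gels of higher and lower stiffness at that stage. The strain and age of the animals, the stiffness values and the days spent in the gels are not stated in the labels. The labels number the replicates without saying whether these were separate cultures, so each p-value reflects the variation among these 6 libraries alone, and that variation may be technical.

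Caveolae are flask-shaped pits of the plasma membrane that flatten when the membrane is stretched and so take up tension. Their coat is made of caveolins, which sit in the inner leaflet of the membrane as oligomers, and of cavins, which join from the cytosol. Caveolin-1 (Cav1) and cavin-1 (Cavin1) are each required for caveolae outside striated muscle. Caveolin-2 (Cav2) depends on caveolin-1 to reach the cell surface. Cavin-2 (Cavin2) and cavin-3 (Cavin3) bind protein kinase C isoforms and join cavin-1 in the coat, and cavin-4 (Cavin4) is known from muscle. EHD2 (Ehd2) is an ATPase that holds caveolae at the surface by a ring around their neck. The muscle caveolin gene Cav3 was looked for but is not among the 15016 listed genes, so it could not be analysed.

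The deposited values rest on the mouse build mm10, also called GRCm38, and RefSeq places the genes on 5 of its chromosomes. Cav2 (chromosome 6, 17281185 to 17289130) ends 17205 bases before Cav1 (chromosome 6, 17306335 to 17341328), and both are on the plus strand. Cavin1 is on chromosome 11 (100956736 to 100970617), Cavin2 on chromosome 1 (51289126 to 51302960) and Cavin4 on chromosome 4 (48663514 to 48673492). Cavin3 (105480616 to 105482197) and Ehd2 (15946963 to 15967535) are both on chromosome 7. Because the library kit does not mark the strand, reads from an antisense exon could not be separated from those of the gene. In the GENCODE annotation, such an overlap of exons was found for Cavin3 only, where 374 of 1662 exonic bases are shared with Gm45667 on the other strand. Antisense genes also span Cav1, Cav2 and Cavin2, with 0 shared exonic bases.

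The promoters of Cav1, Cav2 and Cavin1 are shown because Cav1 and its neighbour Cav2 had more RNA in stiff gels and Cavin1 less, as given further on. Each is 300 bases from RefSeq on build GRCm38.p6, made of 250 bases before and 50 from the transcription start. Capitals mark the GC box GGGCGG of Sp1-type factors, the CACCC element CCACCC of Kruppel-like factors, the AP-1 site TGANTCA and the TEAD site GGAATG, on either strand.
Cav1, first start, chr6:17306085-17306384, plus strand: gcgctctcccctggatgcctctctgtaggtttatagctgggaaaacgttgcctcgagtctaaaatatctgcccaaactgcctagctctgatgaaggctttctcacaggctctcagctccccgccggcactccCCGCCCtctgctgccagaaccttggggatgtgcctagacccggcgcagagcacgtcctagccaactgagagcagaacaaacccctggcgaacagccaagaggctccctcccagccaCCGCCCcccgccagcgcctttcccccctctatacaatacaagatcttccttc
Cav1, second start, chr6:17307390-17307689, plus strand: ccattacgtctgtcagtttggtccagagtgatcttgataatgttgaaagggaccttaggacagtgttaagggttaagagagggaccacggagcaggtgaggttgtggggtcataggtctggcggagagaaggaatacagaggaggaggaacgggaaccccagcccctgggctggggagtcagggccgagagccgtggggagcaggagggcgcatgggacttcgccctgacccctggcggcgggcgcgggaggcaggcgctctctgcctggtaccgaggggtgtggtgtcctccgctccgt
Cav2, chr6:17280935-17281234, plus strand: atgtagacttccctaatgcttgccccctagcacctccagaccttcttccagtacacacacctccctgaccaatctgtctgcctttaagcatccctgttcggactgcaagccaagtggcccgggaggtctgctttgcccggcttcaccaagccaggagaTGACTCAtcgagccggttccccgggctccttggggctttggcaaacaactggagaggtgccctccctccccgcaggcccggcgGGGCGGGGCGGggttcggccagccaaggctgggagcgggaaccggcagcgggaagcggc
Cavin1, chr11:100970568-100970867, minus strand: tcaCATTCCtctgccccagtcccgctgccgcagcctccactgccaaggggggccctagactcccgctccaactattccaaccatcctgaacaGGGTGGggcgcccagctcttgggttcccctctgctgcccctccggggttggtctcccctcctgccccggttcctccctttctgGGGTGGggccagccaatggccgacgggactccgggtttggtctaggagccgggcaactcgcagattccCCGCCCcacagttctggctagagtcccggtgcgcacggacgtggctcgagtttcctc

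The window of the first Cav1 start held 2 GC boxes and the window of the second held none of the motifs searched. Cav2 had 2 GC boxes, which overlap by a base, and an AP-1 site that begins 92 bases before the start. Cavin1 had a GC box, 2 CACCC elements and a TEAD site. Among 32851 RefSeq promoters of this length, 35.7% held a GC box, 31.5% a CACCC element, 7.81% an AP-1 site and 14.7% a TEAD site. The CArG box of serum response factor was found in 1.63% of them and in none of the member windows. Promoter entries were matched for 6 of the 7 genes, and all 8 windows were searched. Ehd2 had 2 GC boxes, Cavin4 a CACCC element, and Cavin2 none of the motifs. A match is a string of letters and shows no binding.

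Depth was 16108470 to 17899391 reads per library over the listed genes. Levels are in FPKM, fragments scaled to gene length and library depth, so genes can be compared within a library. One soft library stood between the groups: on the first principal component, with 62.5% of the variance, soft replicate 1 was at 1.94, the stiff libraries at -17.3 to -7.89, and soft replicates 2 and 3 at 16.1 and 18.9. In bulk RNA, fewer cells of a type and less RNA per cell cannot be told apart.

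Cav1 was the most abundant coat gene and had the largest difference of the 7. It was at 90.0, 90.9 and 95.3 FPKM in stiff replicates 1 to 3, against 40.9, 36.5 and 37.0 FPKM in soft replicates 1 to 3. Every stiff library was far above every soft one, and the replicates of a group lay close together. The means were 92.0 ± 2.83 FPKM in stiff gels and 38.1 ± 2.40 FPKM in soft gels (SD, n = 3 each), a ratio of 2.41. On the log2(FPKM + 1) scale the difference was 1.25 ± 0.06 (SE), and 1.30 without soft replicate 1. The authors' deposited table gives a log2 fold change of 1.24. From 4545 to 4750 reads of Cav1 were counted per stiff library and from 1934 to 2098 per soft library, so counting error is small for this gene.

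Cav2 was present at a far lower level than its partner. It was at 3.23, 3.11 and 2.95 FPKM in stiff gels, against 2.12, 2.20 and 2.75 FPKM in soft gels. The groups did not overlap, although soft replicate 3 came close to the lowest stiff library. Means were 3.10 ± 0.14 FPKM in stiff gels and 2.36 ± 0.34 FPKM in soft gels (SD, n = 3 each), a ratio of 1.31 and a log2 difference of 0.29 ± 0.09 (SE). With 123 to 193 reads per library, the counting error of Cav2 reached 9.02% in the library with the fewest reads. The log2 difference of this gene was 0.40 with limma-voom on rebuilt reads, since the added 1 FPKM shrinks the difference of low genes.

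The cavins did not share a direction. Cavin1, the cavin without which the coat does not form, was lower in stiff gels, at 10.9, 11.5 and 11.3 FPKM against 15.1, 13.2 and 13.5 FPKM in soft gels. The groups were separate, and soft replicate 1 was the highest library. Means were 11.2 ± 0.314 FPKM in stiff gels and 13.9 ± 1.01 FPKM in soft gels (SD, n = 3 each), a ratio of 0.806 and a log2 difference of -0.29 ± 0.07 (SE). Without soft replicate 1 that difference was -0.23.

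Cavin3 had the second largest difference among the coat genes and was the most abundant cavin. It was at 34.4, 39.0 and 36.4 FPKM in stiff gels, against 23.3, 22.7 and 20.2 FPKM in soft gels, with no overlap between the groups. Means were 36.6 ± 2.30 FPKM in stiff gels and 22.1 ± 1.66 FPKM in soft gels (SD, n = 3 each), a ratio of 1.66 and a log2 difference of 0.71 ± 0.08 (SE). The shared antisense exon may add reads to this gene, and its part in the difference was not tested.

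Cavin2 was at 7.97, 10.4 and 8.82 FPKM in stiff gels, against 6.88, 6.75 and 6.56 FPKM in soft gels. The soft libraries were nearly equal and the stiff ones spread more, with stiff replicate 2 highest. Means were 9.07 ± 1.25 FPKM in stiff gels and 6.73 ± 0.156 FPKM in soft gels (SD, n = 3 each), a ratio of 1.35 and a log2 difference of 0.37 ± 0.09 (SE), which was 0.28 without stiff replicate 2.

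Cavin4, the cavin of muscle, was the least abundant coat gene. It was at 0.988, 1.31 and 1.37 FPKM in stiff gels, against 1.16, 1.31 and 1.39 FPKM in soft gels, and the groups overlapped. Only 36 to 51 reads were counted per library, with a counting error of 16.7% in the library with the fewest, so a difference of the size of the mean log2 difference, -0.05 ± 0.10 (SE), was not detectable at this depth. Without stiff replicate 1 the difference was 0.03.

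Ehd2, at the neck of the pit, was lower in stiff gels by its mean, but its libraries were uneven. It was at 3.40, 2.47 and 2.06 FPKM in stiff gels, against 3.18, 4.31 and 5.08 FPKM in soft gels. Stiff replicate 1 was above soft replicate 1, so the groups overlapped, while soft replicates 2 and 3 were above all stiff libraries. Means were 2.64 ± 0.684 FPKM in stiff gels and 4.19 ± 0.960 FPKM in soft gels (SD, n = 3 each), a ratio of 0.631 and a log2 difference of -0.51 ± 0.16 (SE). The difference was -0.66 without soft replicate 1 and -0.39 without soft replicate 3.

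In all, 5 of the 7 genes had groups that did not overlap, 4 with stiff gels above and 1 with stiff gels below. Among the 11780 genes with a mean of at least 1 FPKM in either group, 25.9% had such groups, 15.5% with stiff gels above and 10.4% with stiff gels below. Since the members were chosen from this contrast, nothing is read from their count. All 7 passed this filter. The median log2 difference over the 7 genes was 0.29, and over all 11780 genes it was 0.03.

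**Figure D1:**
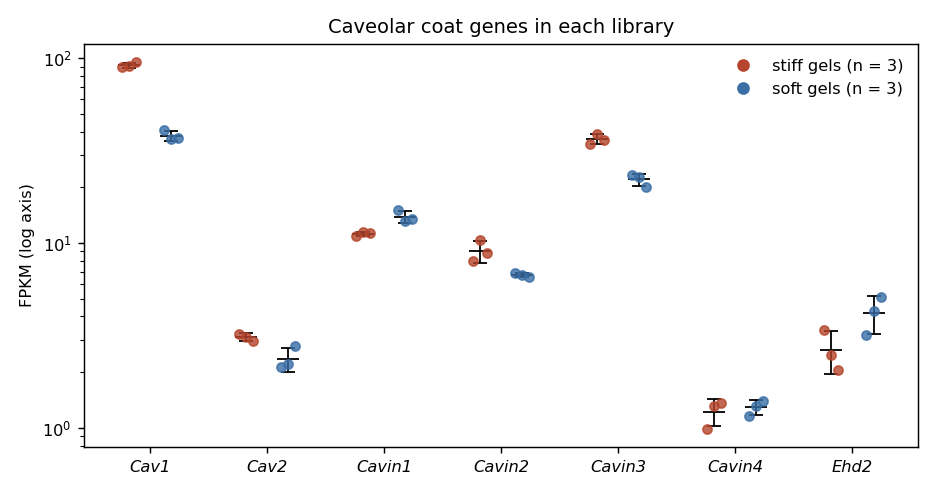
FPKM of the 7 coat genes in each library on a log axis, with stiff gels left of soft gels (points, libraries; black bars, mean ± SD, n = 3 each). Cav1 is at 90.0 to 95.3 FPKM in stiff gels and 36.5 to 40.9 FPKM in soft gels, and the points of Cavin4 and Ehd2 overlap.

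**Figure D2:**
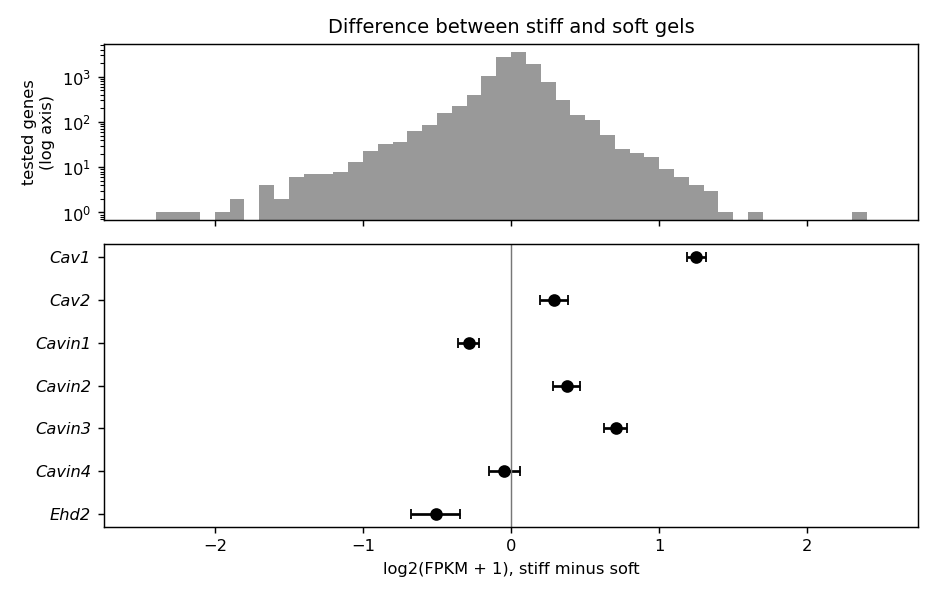
Upper panel, histogram of the differences of all 11780 tested genes with a log axis for the number of genes. Lower panel, difference of each coat gene on the log2(FPKM + 1) scale, stiff minus soft, with its SE. Cav1 lies at 1.25 and Cavin3 at 0.71, and Cavin1 and Ehd2 lie below 0.

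The order of the levels was nearly the same in both gels. Cav1 was highest, followed by Cavin3, Cavin1 and Cavin2, and each was above the next in every library of either group. Cav1 was at percentile 93.9 of the mean levels of all 15016 genes, Cavin3 at 83.9, Cavin1 at 65.2 and Cavin2 at 53.4. Cav2 was at percentile 33.0, Ehd2 at 36.2 and Cavin4 at 24.4. Cav2 and Ehd2 overlapped in stiff gels, at 2.95 to 3.23 and 2.06 to 3.40 FPKM. In soft gels Ehd2 was above Cav2, at 3.18 to 5.08 against 2.12 to 2.75 FPKM. Cavin4 was the lowest in both gels.

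The ratios of coat genes within a library differed between the gels, and 6 of the 7 ratios examined did not overlap between the gels. The ratios were chosen with this contrast known, and no share over ratios of other genes was computed. Nothing is therefore read from this count. The ratio Cavin1/Cav1 was 0.121, 0.126 and 0.119 in stiff gels, against 0.368, 0.361 and 0.366 in soft gels. It was the tightest of the ratios, and soft replicate 1 lay with the other soft libraries. The means were 0.122 ± 0.0039 in stiff gels and 0.365 ± 0.00398 in soft gels (SD, n = 3 each), a ratio between the gels of 0.334. The ratio Ehd2/Cav1 was 0.0378, 0.0272 and 0.0217 in stiff gels, against 0.0777, 0.118 and 0.137 in soft gels, and all stiff libraries were below all soft ones although Ehd2 itself overlapped. The ratio Cav2/Cav1 was 0.0337 ± 0.0025 in stiff gels and 0.0622 ± 0.0114 in soft gels.

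Relative to Cavin1, both Cavin2 and Cavin3 were higher in stiff gels. The ratio Cavin3/Cavin1 was 3.17, 3.40 and 3.22 in stiff gels, against 1.55, 1.73 and 1.49 in soft gels. The ratio Cavin2/Cavin1 was 0.734, 0.909 and 0.780 in stiff gels, against 0.457, 0.513 and 0.485 in soft gels. Both ratios were higher in every stiff library than in any soft one. Cavin2/Cavin3 was 0.247 ± 0.018 in stiff gels and 0.306 ± 0.017 in soft gels. Cavin4/Cavin1 was 0.109 ± 0.016 in stiff gels and 0.0932 ± 0.0142 in soft gels and overlapped.

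**Figure D3:**
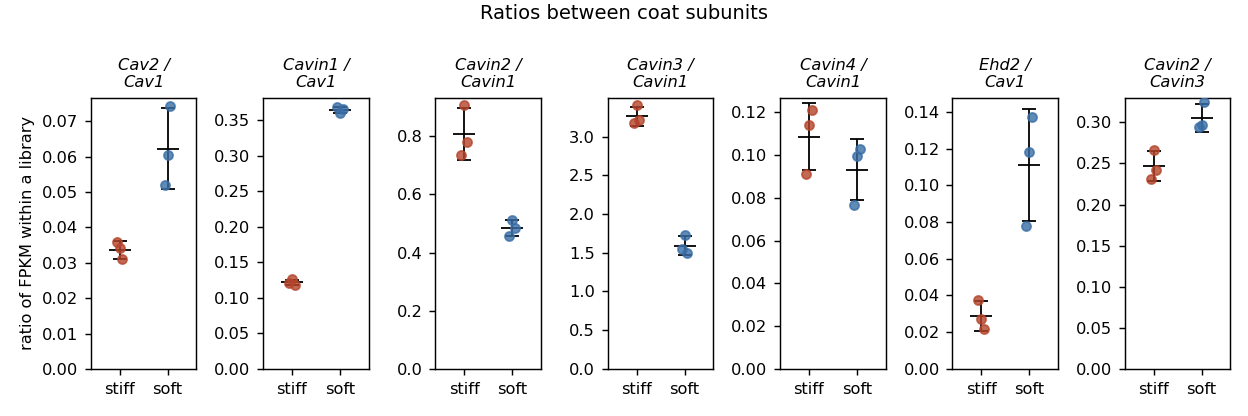
Ratio of FPKM between pairs of coat genes within each library, stiff gels left of soft gels, each panel with its own axis from 0 (points, libraries; black bars, mean ± SD, n = 3 each). Cavin1/Cav1 is at 0.119 to 0.126 in stiff gels and 0.361 to 0.368 in soft gels, and Cavin4/Cavin1 overlaps.

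Summed over the 4 cavins, the level was 54.3 to 62.2 FPKM in stiff gels and 41.7 to 46.4 FPKM in soft gels, a ratio of means of 1.32. The summed caveolin level was 93.2 to 98.2 FPKM in stiff gels and 38.7 to 43.0 FPKM in soft gels, a ratio of 2.35. Cavin RNA per caveolin RNA was therefore 0.611 ± 0.044 in stiff gels and 1.09 ± 0.04 in soft gels. Cavin3 made up 63.0 ± 0.41% of the cavin sum in stiff gels and 50.1 ± 1.63% in soft gels, and Cavin1 19.3 ± 0.81% in stiff gels and 31.6 ± 1.44% in soft gels. The share of Cavin2 was 15.6 ± 1.07% in stiff gels and 15.3 ± 0.47% in soft gels. Cavin4 held 2.096% of the sum in stiff gels and 2.941% in soft gels. These are shares of RNA and say nothing of protein.

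**Figure D4:**
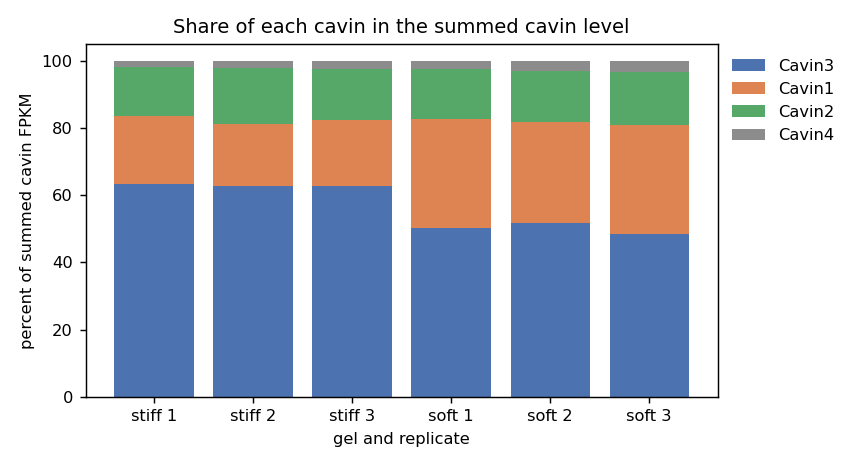
Share of each cavin gene in the summed cavin FPKM of each library, stiff gels left of soft gels. Cavin3 holds 62.7% to 63.5% in stiff gels and 48.4% to 51.7% in soft gels, and the share of Cavin1 is smaller in every stiff library.

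The genes around Cav1 and Cav2 were followed within 500000 bases. Of 4 tested neighbours, 1 was called (limma adjusted p under 0.05, a call made for 5.81% of all tested genes). Tes, a LIM domain gene of focal adhesions upstream of Cav2 (chromosome 6, 17065149 to 17105825), fell to 50.2 ± 2.58 FPKM in stiff gels, against 65.8 ± 8.30 FPKM in soft gels (log2 difference -0.38 ± 0.09 SE, limma adjusted p = 0.0486). Leaving out any library other than soft replicate 1 ended this call (limma adjusted p up to 0.165), and it held under 2 of the 7 alternatives that keep all libraries, another pseudocount and limma-voom. Met, the receptor gene for hepatocyte growth factor on the other side of Cav1, was at 7.11 ± 0.73 FPKM in stiff gels and 6.47 ± 0.19 FPKM in soft gels (limma adjusted p = 0.471). The capping protein gene Capza2 and St7 were at 49.5 and 4.58 FPKM in stiff gels and 48.3 and 3.76 FPKM in soft gels, and neither was called (limma adjusted p = 0.843 and 0.14). The log2 differences of these 4 genes lay between -0.38 and 0.23, against 1.25 for Cav1.

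Genes known to work with caveolae were examined in 9 lists, which were chosen with earlier results of these data known. Of 114 tested partner genes, 5 rose and 5 fell in stiff gels, which is 8.77%; over all tested genes, 3.13% rose and 2.68% fell. At an unadjusted limma p under 0.05 there were 33 partner genes, 28.9%, against 21.7% of all tested genes. Because of how the lists were chosen, these shares are descriptions, and nothing is read from them about partner genes as a set. The median log2 difference was -0.01 over the partner genes and 0.03 over all genes. Of the 10 called partner genes only the transcription factor gene Klf2 stayed called whichever library was left out. Leaving out soft replicate 2 ended 9 of the calls, soft replicate 3, stiff replicate 1 or stiff replicate 3 ended 8 each, stiff replicate 2 ended 5 and soft replicate 1 ended 0. Without soft replicate 1 there were 8 partner genes that rose and 17 that fell, and without soft replicate 2 there were 1 and 0. Those that fell without soft replicate 1 included 2 actin linkers, 3 kinases and receptors and 3 genes of cholesterol and sphingolipids. Anxa1 and Foxo1 also lost their calls without the filter on low values, Sqle and Tead1 without the intensity trend, and Npc1 in either case.

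Among the neck and scaffold partners, 1 of 9 rose and 0 fell, with a list median of -0.05. Pacsin3, an F-BAR protein gene that shapes caveolae in muscle, rose to 17.5 ± 1.22 FPKM in stiff gels, against 13.5 ± 0.92 FPKM in soft gels (log2 difference 0.35 ± 0.08 SE, limma adjusted p = 0.0323). Pacsin2, the F-BAR gene of other tissues, was at 12.2 FPKM in stiff gels and 11.7 FPKM in soft gels. The dynamin gene Dnm2, whose product cuts the neck, was at 11.9 ± 0.65 FPKM in stiff gels and 12.3 ± 0.09 FPKM in soft gels, and Ehd1, a paralog of Ehd2, at 18.7 and 19.9 FPKM. Ror1, a receptor that scaffolds caveolin with cavin-1, was at 7.87 ± 0.74 FPKM in stiff gels and 9.04 ± 0.60 FPKM in soft gels (limma adjusted p = 0.254).

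Of the 6 actin linkers, 1 fell and 0 rose, with a median of -0.19. Inf2, a formin gene, fell to 5.90 ± 1.18 FPKM in stiff gels, against 10.6 ± 1.72 FPKM in soft gels (log2 difference -0.75 ± 0.14 SE, limma adjusted p = 0.02). Flna, which encodes the caveolin-binding actin cross-linker filamin A, was at 118 ± 9.61 FPKM in stiff gels and 134 ± 12.7 FPKM in soft gels and was not called (limma adjusted p = 0.289). Of 13 kinases and receptors found at caveolae, 1 fell and 0 rose. Kdr, the VEGF receptor gene, fell to 10.7 ± 2.04 FPKM in stiff gels, against 24.7 ± 5.17 FPKM in soft gels (log2 difference -1.13 ± 0.16 SE, limma adjusted p = 0.0104). The kinase gene Abl1 was at 28.2 FPKM in stiff gels and 26.3 FPKM in soft gels.

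Of 9 membrane repair genes 1 fell and 0 rose, and 5 had an unadjusted p under 0.05. With limma-voom, as without soft replicate 1, 1 rose and 2 fell in this list; without stiff replicate 2, 0 rose and 2 fell, and without any of the other libraries, or without the filter on low values, 0 were called. Anxa1, an annexin gene, fell to 27.1 ± 4.16 FPKM in stiff gels, against 49.0 ± 11.5 FPKM in soft gels (log2 difference -0.81 ± 0.17 SE, limma adjusted p = 0.027). Anxa5, the most abundant gene of that list, was at 187 FPKM in stiff gels and 186 FPKM in soft gels. Cholesterol is a building block of caveolae, and of 17 genes for cholesterol and sphingolipids 1 rose and 1 fell. Npc1, which lets cholesterol out of lysosomes, rose to 26.2 ± 2.11 FPKM in stiff gels, against 20.02 ± 1.91 FPKM in soft gels (limma adjusted p = 0.0426). The sterol synthesis gene Sqle fell to 53.6 ± 2.03 FPKM in stiff gels, against 66.7 ± 4.81 FPKM in soft gels (limma adjusted p = 0.0353). The lipoprotein gene Apoe was at 259 FPKM in stiff gels and 268 FPKM in soft gels.

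The lists for other ways into the cell and for disposal of caveolin held 0 calls by limma with all libraries and no block for the replicate number. These were 27 genes of clathrin coats, of which 5 had an unadjusted p under 0.05, 1 rose and 1 fell with limma-voom, 1 fell with the block, and 2 rose and 1 fell without soft replicate 1. Of 11 flotillin and related raft genes, 1 had an unadjusted p under 0.05, 1 fell with limma-voom and 2 fell without soft replicate 1. Of 8 genes of caveolin turnover, 1 had an unadjusted p under 0.05 and 0 were called with limma-voom or without soft replicate 1. The most abundant member of each list was not called. The clathrin light chain gene Clta was at 112 FPKM in stiff gels and 116 FPKM in soft gels, the prohibitin gene Phb2 at 149 and 146 FPKM, and Vcp, the ATPase gene that sorts spent caveolin, at 147 and 154 FPKM.

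Of 14 genes for transcriptional regulators known to act on caveolar genes, 3 rose and 1 fell, with a median of -0.13. An unadjusted limma p under 0.05 was found for 9 of them, against 21.7% of all tested genes. All stiff libraries were above all soft ones for 3 genes and below them for 6. Over all tested genes those shares were 15.5% and 10.4%. This list too was chosen with earlier results known, so nothing is read from these counts. Klf2, a Kruppel-like factor gene, rose to 10.6 ± 1.94 FPKM in stiff gels, against 1.30 ± 0.06 FPKM in soft gels (log2 difference 2.32 ± 0.12 SE, limma adjusted p = 7.59e-05). Srebf1, a regulator of lipid synthesis, rose to 97.1 ± 6.84 FPKM in stiff gels, against 75.6 ± 4.83 FPKM in soft gels (limma adjusted p = 0.0304). Foxo1, a forkhead factor gene named after its values were seen, rose to 12.6 ± 0.84 FPKM in stiff gels, against 9.81 ± 0.50 FPKM in soft gels (limma adjusted p = 0.0333). Tead1, whose product binds DNA for YAP and TAZ, fell to 18.5 ± 0.99 FPKM in stiff gels, against 22.5 ± 0.43 FPKM in soft gels (limma adjusted p = 0.0393). Yap1 was at 48.4 ± 1.61 FPKM in stiff gels and 46.8 ± 1.34 FPKM in soft gels, Tead2 at 130 ± 3.83 and 127 ± 12.1 FPKM, and Srf at 26.7 ± 2.53 and 26.6 ± 0.838 FPKM, and none of them was called (limma adjusted p = 0.697, 0.870 and 0.998). Wwtr1, which encodes TAZ, was called lower only without soft replicate 1 (log2 difference -0.27, limma adjusted p = 0.0369). Without soft replicate 1 this list held 3 genes that rose and 4 that fell. It held 2 and 0 without stiff replicate 2, and 1 and 0 without any of the other libraries.

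**Figure D5:**
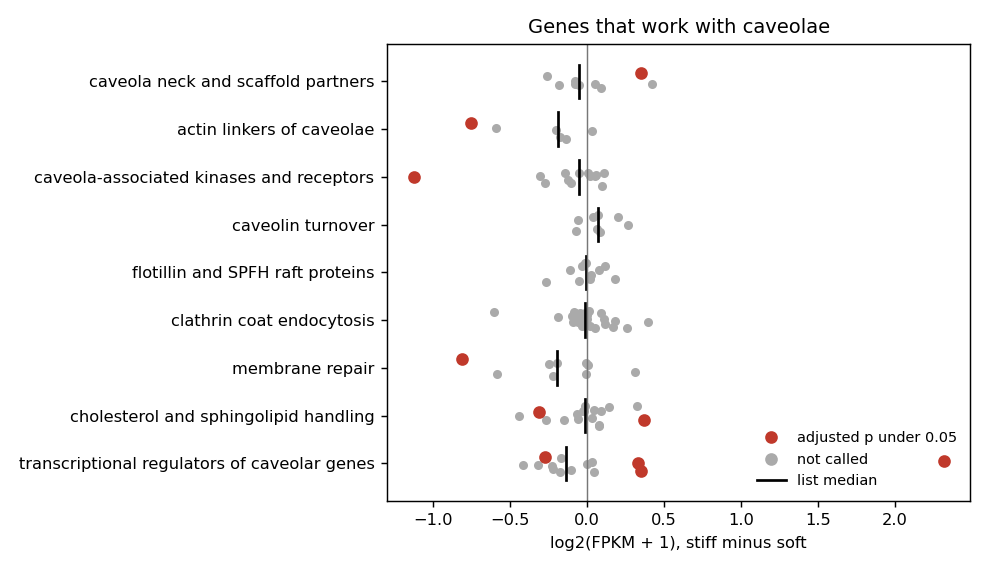
Difference of each tested partner gene on the log2(FPKM + 1) scale, stiff minus soft, by list (red, limma adjusted p under 0.05; grey, not called; black line, list median). Klf2 stands alone at 2.32, Kdr is lowest at -1.13, and the medians lie between -0.19 and 0.07.

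The deposited table also names genes by Gene Ontology term, and 80 carry the term caveola, the 7 coat genes among them. Of the other 73, 57 were tested, of which 1 rose and 3 fell, with a median of -0.02. Over all tested genes, 3.13% rose and 2.68% fell. This list was chosen after seeing the data, so nothing is read from these counts. The fatty acid transporter gene Slc27a1 rose to 23.2 ± 0.51 FPKM in stiff gels, against 17.97 ± 2.04 FPKM in soft gels (limma adjusted p = 0.0415). The heme oxygenase gene Hmox1 fell to 12.1 ± 2.08 FPKM in stiff gels, against 18.9 ± 3.26 FPKM in soft gels (limma adjusted p = 0.0411). Ptgs2, which encodes an inducible cyclooxygenase, fell to 2.39 ± 1.14 FPKM in stiff gels, against 17.5 ± 11.0 FPKM in soft gels (limma adjusted p = 0.0393). The E-selectin gene Sele fell to 1.39 ± 1.01 FPKM in stiff gels, against 4.76 ± 1.78 FPKM in soft gels (limma adjusted p = 0.0428). All 4 calls were lost without soft replicate 2, soft replicate 3, stiff replicate 1 or stiff replicate 3, with a limma adjusted p of up to 0.153. The same held without the filter on low values (limma adjusted p = 0.0627 to 0.0763). Ptgs2 also lost its call with limma-voom (adjusted p = 0.0617), Slc27a1 with median-ratio scaling (limma adjusted p = 0.0516), and Hmox1, Sele and Slc27a1 without the intensity trend (limma adjusted p = 0.0509, 0.0508 and 0.0537).

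The genes whose pattern over the 6 libraries was most like that of Cav1 were ranked by Pearson r of log2 values among 8553 genes with a mean of at least 5 FPKM. With so few libraries in separate groups, r mostly follows the gel, and it is given as a measure of likeness only. The closest 5 had r from 0.992 to 0.996. They were the tight junction gene Cldn9, the copper chaperone gene Ccs, the cilium dynein gene Dync2li1, the cytochrome gene Cyp2j6 and Cdc42ep2, an effector of the GTPase CDC42. Cldn9 was at 188 ± 4.22 FPKM in stiff gels and 143 ± 3.81 FPKM in soft gels, and Cdc42ep2 at 15.9 ± 0.69 and 9.49 ± 0.02 FPKM. Their log2 differences of 0.39 and 0.69 were smaller than that of Cav1. The closest 3 genes of Cavin3 were Polr3e, Cspg5 and Dync2li1 (r = 0.994 to 0.997), so Dync2li1 was near both. Those of Cavin2 were Zbtb17, Clmp and Ubxn6 (0.9903 to 0.9928), those of Cavin1 were Uaca, Cdt1 and Resf1 (0.987 to 0.995), and those of Cav2 were Man1b1, Ccdc85b and Wdr34 (0.982 to 0.985). Those of Ehd2 were Cdkn2a, Copg1 and Dock1 (0.9905 to 0.9961), and those of Cavin4 were Nudt22, Rpl12 and Lrwd1 (0.977 to 0.981). For the tumour suppressor gene Cdkn2a, stiff replicate 1 and soft replicate 1 were nearly equal (6.07 against 6.04 FPKM), and its groups overlapped, as those of Ehd2 did.

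Several cell types are rich in caveolae, so their markers were read beside the coat genes. Endothelial markers summed to 347 to 434 FPKM in stiff gels and 401 to 469 FPKM in soft gels, with 0 of 6 tested members rising and 1 falling, Kdr, whose call was lost without stiff replicate 1 or soft replicate 2. Most of that sum was Emcn, at 326 to 406 FPKM in stiff gels and 366 to 423 FPKM in soft gels. Pecam1 was at no more than 0.0745 FPKM in stiff gels and 0.134 FPKM in soft gels. Tie1 had a mean of 0.0352 FPKM in stiff gels and 0.0195 FPKM in soft gels, and Vwf and Esam were under 1 FPKM in every library. Erg, Sox17, Sox18 and Cldn5 were not among the listed genes. The remaining endothelial markers were higher than Pecam1. Tek was at 5.37 FPKM in stiff gels and 4.90 FPKM in soft gels, and Egfl7 at 4.73 and 6.07 FPKM. Plvap was at 2.53 and 3.21 FPKM and Cdh5 at 0.977 and 1.24 FPKM, and none of these was called. Smooth muscle markers summed to 14.1 to 16.1 FPKM in stiff gels and 17.5 to 19.2 FPKM in soft gels, skeletal muscle markers to at most 0.238 and 0.148 FPKM, and pericyte markers to 21.6 to 28.5 and 31.7 to 43.9 FPKM. Lmod1 made up most of the smooth muscle sum, at 12.1 to 13.4 FPKM in stiff gels and 13.6 to 16.6 FPKM in soft gels. Tagln had means of 1.63 and 2.42 FPKM. Acta2, Myh11, Cnn1, Des and Myocd were under 1 FPKM in every library. Of these, Myh11 was higher in every stiff library, with means of 0.227 FPKM in stiff gels and 0.141 FPKM in soft gels. The smooth muscle sum therefore mostly follows Lmod1. Of 2 tested smooth muscle markers 0 were called by limma or limma-voom and 2 had an unadjusted limma p under 0.05 (without soft replicate 1, 1 fell). Among 3 tested pericyte markers 1 fell, Rgs5, and without soft replicate 1 there were 2 that fell. With all libraries Pdgfrb and Notch3 were not called (limma adjusted p = 0.416 and 0.702), and Cspg4, Kcnj8 and Abcc9 were too low to be tested. Over all tested genes, 3.13% rose and 2.68% fell. Only Lipe of the 8 adipocyte markers was among the listed genes (4.42 to 5.00 FPKM in stiff gels, 4.32 to 4.94 FPKM in soft gels).

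Fibroblast and mesenchyme markers summed to 758 to 781 FPKM in stiff gels and 599.8 to 734 FPKM in soft gels, without overlap, and 0 of 8 tested members were called by limma (3 had an unadjusted p under 0.05); 1 rose and 1 fell with limma-voom, 1 fell without the filter on low values, and 2 rose and 1 fell without soft replicate 1. Dcn and Lum made up most of it, and Col1a1 was under 0.2 FPKM. The members did not share a direction. Dcn was at 181 ± 6.64 FPKM in stiff gels and 125 ± 34.8 FPKM in soft gels, and Lum at 411 ± 23.9 and 326 ± 63.2 FPKM. Col3a1 was lower in stiff gels by its mean, at 35.1 ± 10.1 against 72.7 ± 25.6 FPKM (limma adjusted p = 0.074). Col1a2 was at 0.127 ± 0.031 FPKM in stiff gels and 0.515 ± 0.070 FPKM in soft gels. Supporting and prosensory cell markers of the cochlea summed to 741 to 830 FPKM in stiff gels and 549 to 683 FPKM in soft gels. Of 12 tested members, 6 rose (Sox2, Jag1, Lgr5, Tecta, Otog and Gjb6) and 0 fell. Over all tested genes, 3.13% rose and 2.68% fell. The number that rose became 0 without stiff replicate 1, 1 without soft replicate 2, 2 without stiff replicate 3 and 3 without soft replicate 3. Cdh1 of this list was lower in every stiff library, at 55.5 ± 4.81 against 64.5 ± 2.83 FPKM (limma adjusted p = 0.130). Of 10 hair cell markers 7 were among the listed genes and 4 were tested, and Otof was at no more than 0.0277 FPKM in stiff gels and 0.0465 FPKM in soft gels. The markers summed to 35.3 to 42.7 FPKM in stiff gels and 30.8 to 32.9 FPKM in soft gels. Calb2 rose, a call that was lost without any library other than soft replicate 1. It was also lost without the filter on low values (limma adjusted p = 0.0748). The other tested markers were not called. Myo6, most of the sum, was at 23.3 ± 1.47 FPKM in stiff gels and 21.8 ± 0.951 FPKM in soft gels, and Myo7a at 1.64 FPKM in both. Espn was lower in every stiff library, at 2.19 ± 0.332 against 2.95 ± 0.385 FPKM (limma adjusted p = 0.138). The part of any of these cell types, those of the blood vessels, muscle and fat included, in the differences of the coat genes was not tested.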

How the data were processed

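RNA-seq was measured in 6 libraries, 3 from stiff and 3 from soft gels. Per the labels' protocols, the TruSeq RNA v2 kit and a HiSeq 2500 were used. TopHat2 2.1.1, DESeq2 and mm10 are named per the submitters' processing notes, which as given here name neither read counter nor gene annotation. The authors deposited expression per library, taken as FPKM from its values. Per the file headers, the deposited base mean is a signal (mean normalized count), and the deposited log2 fold change, its fold ratio, its test score and its p-value and q-value compare stiff with soft gels; of these only base mean and log2 fold change were used. Reads were rebuilt from FPKM steps and base mean: 100% of values were whole within 0.05 reads, which gave the depth of 16108470 to 17899391 reads. Genes with a mean of at least 1 FPKM in either group (11780) were fitted as log2(FPKM + 1) with limma 3.58.1 (intensity trend, R 4.3.3), Benjamini-Hochberg adjusted, called under 0.05. The test was checked on simulated counts that held no library between the groups, so that check does not cover a library like soft replicate 1. The log2 scale understates changes of low genes. Differences are stiff minus soft. Promoters and positions came from RefSeq, build GRCm38.p6, exons from GENCODE M21. Coat genes and partner lists were chosen with earlier results of these data known. The naming rule took the coat genes; in each list up to 2 called genes a direction by adjusted p and the most abundant; Cav3, Klf2, Yap1, Wwtr1, Srf, Ror1, Pacsin2 and Dnm2; the nearest patterns; and neighbours of Cav1 and Cav2. Alternatives were another pseudocount (0.1), no filter or one at 5 FPKM, median-ratio scaling, limma-voom on rebuilt reads, no trend, a replicate block, and each library left out.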

Additional observations from a re-analysis of the deposited data

How the results depend on the processing

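The differences of the 7 coat genes kept their direction under the 7 alternatives that keep all libraries (those below 5 FPKM could not be read under that filter), and moved by more than the spread between replicates only for Cav2 with limma-voom on rebuilt reads (0.40 against 0.29). Leaving out a library gave 1.22 to 1.30 for Cav1, 0.24 to 0.37 for Cav2, -0.32 to -0.23 for Cavin1, 0.28 to 0.45 for Cavin2, 0.65 to 0.75 for Cavin3, -0.66 to -0.39 for Ehd2 and -0.09 to 0.03 for Cavin4. The ratios were recomputed with geometric group means and with each library left out, and moved by less than the spread between replicates. Median-ratio scaling cancels within a ratio, so it could not move one. The other alternatives were not run on the ratios. The genes called over the whole table numbered 369 higher and 316 lower; leaving out a library gave 50 to 860 higher and 15 to 767 lower, with 66 higher and 47 lower when stiff replicate 1 was omitted, 222 higher and 216 lower for stiff replicate 2, 90 higher and 54 lower for stiff replicate 3, 860 higher and 767 lower for soft replicate 1, 50 higher and 15 lower for soft replicate 2, and 124 higher and 86 lower for soft replicate 3. Called partner genes numbered 1 to 8 higher and 0 to 17 lower in these fits, 3 higher without the filter and 9 lower with limma-voom; the cause was not tested. With the replicate number as a block 381 genes were higher and 329 lower, and the calls of Pacsin3, Npc1, Tead1 and Tes were lost (limma adjusted p = 0.0529, 0.0536, 0.0760 and 0.0652). The block gave 1 rise and 2 falls among membrane repair genes, 1 fall among clathrin genes, and 1 rise (Dcn) and 1 fall among fibroblast markers. Deviations of same-numbered libraries correlated at 0.009, 0.22 and -0.21, so the numbers were not taken as pairs. Counting error reached 16.7% for Cavin4 and 9.02% for Cav2 in the library with the fewest reads.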
